A study of Mus musculus with 40 samples.

Results

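The 8 genes described here encode the matrix metalloproteinases Mmp2, Mmp3 and Mmp14, the tissue inhibitors of metalloproteinases Timp1, Timp2, Timp3 and Timp4, and lysyl oxidase (Lox). They were taken by symbol from the gene tables of 2 RNA-seq experiments on mouse aorta, and all 8 were present in both tables, out of 14730 protein-coding genes found in either. No measured value entered the choice of symbols, although earlier results of these data were known when the set was chosen. The experiments addressed how angiotensin-II (Ang-II), a hormone that raises blood pressure, changes gene expression in the aorta when calcineurin (Cn), a calcium-activated phosphatase, is deleted in smooth muscle or inhibited with cyclosporin A (CsA).

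The genotype experiment held 22 libraries from male mice on a C57BL/6J background, all labelled as floxed for Ppp3r1 (CnB1, the regulatory subunit of Cn). All were given tamoxifen (1 mg daily for 5 days) at 10 to 12 weeks of age and were used 6 weeks later. Mice carrying the Myh11-CreERT2 transgene, whose Cre is driven by a smooth muscle myosin promoter, are called SM-Cn-/-, and the Cn-Ctl libraries are labelled as negative for it. The study's methods also admit mice with the transgene and an unfloxed gene as controls, so the pooled Cn-Ctl mice may be more varied than their labels say. Each genotype was untreated (sham operation without a pump) or infused with Ang-II at 1 µg/kg/min for 2, 6 or 24 h, with 3 libraries per group, except that untreated Cn-Ctl and Cn-Ctl at 24 h had 2. The authors had left out 1 untreated Cn-Ctl replicate because it lay far from the other 2 in a principal component analysis. The spread of untreated Cn-Ctl may therefore be understated in every comparison that uses it. For Cn-Ctl at 24 h the study's methods give no reason. The CsA experiment held 18 libraries, 3 per group, from wild-type C57BL/6J males of 10 to 12 weeks, untreated or infused with the same Ang-II dose for 2 or 24 h. The group called CsA received cyclosporin A (5 mg/kg/day) from a minipump for 5 days before Ang-II, while the group called WT had no first pump, so CsA and the pump cannot be told apart. Each library pooled the aortas of 3 mice after the adventitia and perivascular tissue had been removed. Ang-II-treated Cn-Ctl, WT and CsA mice were kept only if systolic pressure exceeded 130 mmHg, whereas SM-Cn-/- mice were kept whatever their pressure. Mice in which the deletion, or the block of NFAT dephosphorylation by CsA, could not be shown were also left out of their groups. Selection and genotype cannot be told apart in the treated groups.

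Matrix metalloproteinases are zinc-dependent enzymes that cut collagens, proteoglycans and other components of the extracellular matrix. TIMPs bind their active site and block them, and TIMP-2 also takes part in the activation of pro-MMP-2 at the cell surface by the membrane-bound MMP-14. Lysyl oxidase works in the opposite direction on the same scaffold, oxidising lysines of collagen and elastin so that the fibres become cross-linked. In the aortic media these activities set how the elastic lamellae and collagen are maintained and remodelled.

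The promoters of Mmp3 and Timp1 are shown because these 2 genes had the largest rises at 24 h in both Cn-Ctl and WT. RefSeq windows of GRCm38.p6, from 250 bases before to 50 after the gene start, were found for 6 of the 8 genes (Mmp2 and Lox were not matched), and the 250 bases upstream are printed 5′ to 3′, with the AP-1 motif TGAGTCA in capitals.
Mmp3, plus strand, chr9:7445572-7445821: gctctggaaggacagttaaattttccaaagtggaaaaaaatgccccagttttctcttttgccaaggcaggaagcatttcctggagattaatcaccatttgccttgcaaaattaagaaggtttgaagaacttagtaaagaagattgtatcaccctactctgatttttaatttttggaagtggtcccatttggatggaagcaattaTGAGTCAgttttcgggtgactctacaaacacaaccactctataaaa
Timp1, plus strand, chrX:20869916-20870165: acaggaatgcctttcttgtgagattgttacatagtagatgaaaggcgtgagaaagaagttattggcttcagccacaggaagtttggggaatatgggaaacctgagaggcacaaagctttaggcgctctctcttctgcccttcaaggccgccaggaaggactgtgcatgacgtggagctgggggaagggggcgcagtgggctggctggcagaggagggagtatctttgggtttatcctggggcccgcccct

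Searched on both strands, TGAGTCA was found in 1 of the 6 windows, that of Mmp3, with its first base 46 bases before the start (position -46), and in 5.20% of all 32851 promoter windows. The variant TGAGTAA was found only in the Timp1 window, at position 27 after the start and so outside the printed stretch, and in 2.68% of all windows. The core GGAAA, which NFAT factors bind, occurred 3 times in the Mmp3 window and once each in those of Timp1 and Mmp14, against 61.3% of all windows that hold it at least once. TGACGTCA (the cyclic AMP response element) and the CArG box were searched too and were in none of the 6 windows. A match of letters is a description and not a measured binding site.

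Values are the authors' normalised signal, reads plus an offset divided by the scaled library size in M reads (M, mega). Genes with more bases collect more reads, so levels of different genes are compared only after division by exon length in kilobases, while differences between groups are log2 differences of (signal + 0.5) within a gene. A gene was called changed when its Benjamini-Hochberg adjusted p from limma, fitted over all protein-coding genes of the experiment (14424 and 13738), was under 0.05. Reads per library ran from 2.73 to 10.2 M (median 6.52 M) in the genotype experiment and from 19.0 to 38.9 M (median 22.8 M) in the CsA experiment. The lowest count of any of the 8 genes in any library was 52 reads, for Timp1. Replicates are separate pools of aortas, but whether they came from separate days or litters is not given in the sources used here. The 2 tables were normalised separately, so no test crosses them, and comparisons within an experiment share libraries and are not independent of each other.

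The targeted gene did not separate the genotypes at the level of whole-gene reads. Ppp3r1 signal was 45.7 to 134 (median 85.6) in 10 Cn-Ctl libraries and 41.8 to 118 (median 76.3) in 12 SM-Cn-/- libraries, so the ranges overlapped. Reads were summed over the whole gene and over every cell type of the tissue, and the deleted part was not measured on its own. All 8 smooth muscle markers were detected in every library and summed to 21042 to 32042 in SM-Cn-/-, 27521 to 49663 in Cn-Ctl, 24112 to 35864 in WT and 16623 to 27986 in CsA. Endothelial markers (8 of 8 detected) summed to 601 to 1382 in SM-Cn-/- against 330 to 649 in Cn-Ctl, and to 841 to 1435 in CsA against 404 to 859 in WT. In such bulk tissue, fewer cells of a type and less RNA per cell cannot be told apart, and the part of cell composition in the results was not tested.

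Per kilobase of exon, Timp2 and Timp3 had the highest levels of the 8 genes in untreated aortas. In untreated WT the mean level per kilobase was 187 ± 7.4 for Timp2 and 162 ± 1.1 for Timp3 (SD, n = 3), and their ranges did not overlap. Lox followed at 29.9 ± 2.4 and Mmp2 at 25.7 ± 7.9, and these neighbours overlapped. Mmp3 (13.01 ± 4.65), Timp1 (9.64 ± 2.5) and Mmp14 (8.8 ± 0.8) came next. Timp1 overlapped both of its neighbours, while Mmp3 and Mmp14 did not overlap each other, and Timp4 was lowest at 6.2 ± 1.2. The order in untreated Cn-Ctl was alike at the top, with Timp2 at 198 ± 30.7 and Timp3 at 157 ± 8.7 (SD, n = 2).

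After 24 h of Ang-II the order of the group means changed in Cn-Ctl and WT. Timp1 then had the highest mean level per kilobase in WT, 227 ± 119.9 (SD, n = 3), with a range of 150 to 365 that overlapped the 155 to 169 of Timp3 and the 115 to 160 of Lox. In Cn-Ctl its mean was 209 ± 151 (SD, n = 2). Its 2 libraries, at 102 and 316, overlapped the 133 to 191 of Timp3 and the 81.3 to 175 of Timp2. In Cn-Ctl 24 h replicate 2 Timp1 was 21.6% of the summed inhibitor level, below Timp3 (40.4%) and Timp2 (37.2%). In SM-Cn-/- at 24 h the Timp1 level per kilobase was 20.99 ± 7.56, against the 221 ± 46 of Timp2, and in CsA it was 46.2 ± 9.2 against 147 ± 13.9 for Timp2 (SD, n = 3).

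Across the genotype experiment Timp1 had the widest ratio of highest to lowest group mean, 16.01, followed by Lox at 8.77 and Mmp3 at 7.95, and the other 5 genes lay between 1.73 and 2.43. In the CsA experiment the same ratio was 23.6 for Timp1, 7.46 for Mmp3 and 6.76 for Lox, and between 1.34 and 2.13 for the rest. The set therefore held 3 genes with wide ranges, an inhibitor, a proteinase and the cross-linking enzyme, and 5 with narrow ones.

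In the Cn-Ctl and WT arms Ang-II raised the cross-linking enzyme Lox by 2 h, and at 24 h the inhibitor Timp1 and the proteinase Mmp3 had the largest rises. The 2 arms differed at 2 h, when limma also called Mmp3 (2.33 on the log2 scale) and Timp1 (2.16) in Cn-Ctl, and neither in WT. Without single libraries these 2 h values ran from 1.57 to 3.08 for Mmp3 and from 1.48 to 2.56 for Timp1. Between 2 and 24 h limma called 0 of the 8 genes in Cn-Ctl. Lox was 8.31-fold higher at 2 h in Cn-Ctl and 3.58-fold higher in WT (limma, both called). At 24 h Timp1 was 13.3-fold and 20.9-fold higher and Mmp3 8.87-fold and 7.56-fold higher in the same arms. In Cn-Ctl these 24 h values moved with single libraries, from 2.92 to 4.54 on the log2 scale for Timp1 and from 2.40 to 3.90 for Mmp3, as given with each gene. With smooth muscle Cn deleted, Lox and Timp1 lay below Cn-Ctl at 24 h, and with CsA the 24 h responses of Timp1 and Mmp3 were smaller than in WT, while the 2 h rise of Lox was 3.39-fold.

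Ang-II raised 4 of the 8 genes in Cn-Ctl at 2 h (by limma 6.23% of all genes tested were called and 4.72% were called higher), 2 at 6 h (3.97% and 2.72%) and 4 at 24 h (5.62% and 3.22%), and lowered none. In Cn-Ctl DESeq2 called 5 at 2 h and 3 at 6 h, and limma with the replicate block called 3 at 6 h (679 of all 14424 genes). The share of all genes called by edgeR or DESeq2 is not given here, so their counts stand without a background. Of the 8 genes, 5 had an unadjusted p under 0.05 by limma at both times. Of all 14424 genes, 2680 did at 2 h and 2420 at 6 h. In SM-Cn-/- Ang-II raised 1 at 2 h (1.13% and 0.984%) and 1 at 24 h (0.79% and 0.638%). At 6 h in SM-Cn-/- limma called 0 (2.34% of all genes), and edgeR and DESeq2 called 0. There 1 had an unadjusted p under 0.05 by limma, beside 2364 of all 14424 genes. Between 2 and 24 h in Cn-Ctl, limma called 0 (7.37% of all genes), and edgeR and DESeq2 called 0. There 3 had an unadjusted p under 0.05 by limma, beside 3324 of all 14424 genes. Between 2 and 24 h in SM-Cn-/- limma called 1, a fall of Timp3 (3.65% called, 1.6% lower). In the CsA experiment 1 gene rose in WT at 2 h (21.4% of all genes called, 11.4% higher). At 24 h 4 rose and 1 fell in WT (35% called, 18.1% higher and 16.9% lower), and from 2 to 24 h 3 rose and 1 fell (36.2%, 17.1% and 19.1%). In CsA 2 were called higher at 2 h, Lox and Timp3, of which Timp3 turned sign under quantile normalization (20.1% called, 12.3% higher). In CsA limma called 3 higher at 24 h (8.98% and 5.2%), where edgeR and DESeq2 each called 4. From 2 to 24 h 3 rose in CsA (18% and 7.43%).

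Groups whose libraries do not overlap were common among all genes, and each such statement below is to be read against that background. Ang-II and untreated libraries did not overlap for 6, 5 and 7 of the 8 genes in Cn-Ctl at 2, 6 and 24 h (39.1%, 34% and 49.8% of all genes) and for 6, 1 and 3 in SM-Cn-/- (20.5%, 18.9% and 19.6%). They did not overlap for 2 and 5 genes in WT at 2 and 24 h (40.5% and 51%) and for 3 and 4 in CsA (36.9% and 29.2%). Between 2 and 24 h the counts were 6 in WT (48.3%) and 3 in CsA (33.6%), and 2 in each genotype (38.1% in Cn-Ctl and 29.5% in SM-Cn-/-). Between genotypes they were 1 untreated (23.5%), 3 at 2 h (22.2%), 2 at 6 h (14.4%) and 2 at 24 h (35.1%), and between CsA and WT 6 untreated (47.8%), 2 at 2 h (20.2%) and 6 at 24 h (27%).

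**Figure D1:**
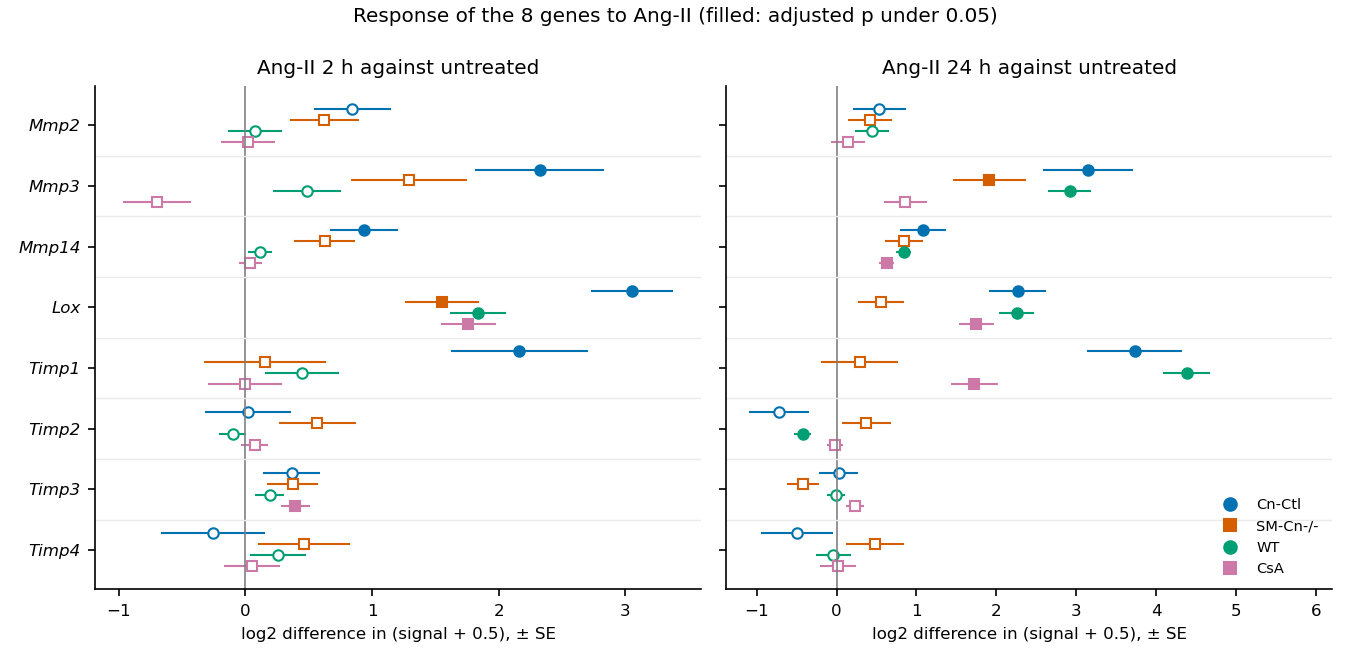
Response of each gene to Ang-II at 2 h (left) and 24 h (right), as the log2 difference in (signal + 0.5) from the untreated group of the same arm. Points are estimates and bars are standard errors, with filled points for adjusted p under 0.05 (limma). At 24 h the Timp1 point stood at 4.39 in WT, 3.73 in Cn-Ctl, 1.73 in CsA and 0.29 in SM-Cn-/-.

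Between genotypes, limma called 0 of the 8 genes in untreated aortas (0.0139% of all genes; 1, Mmp2, at an unadjusted p under 0.05; 0 by edgeR and by DESeq2), 1 at 2 h (3.7% called, 2.97% lower), 1 at 6 h (1.98% and 1.44%) and 2 at 24 h (4.94% and 2.68%), all lower in SM-Cn-/-. The difference between the genotypes' responses was called for 1 gene at 24 h, with a smaller response in SM-Cn-/- (0.513% of all genes called, 0.354% lower). For the 2 h response limma called 0 (0.513%; 2 at an unadjusted p under 0.05; 0 by edgeR and 1 by DESeq2), and for the 6 h response 0 (0.0624%; 1 at an unadjusted p under 0.05; 0 by edgeR and 1 by DESeq2). Between CsA and WT, 2 genes were called higher and 2 lower in CsA in untreated aortas (25.2% called, 13.9% higher and 11.4% lower), of which Timp3, called lower, turned sign under quantile normalization, and 1 was higher and 4 lower at 24 h (5.58%, 2.03% and 3.54%), while at 2 h limma called 0 (1.33%; 3 at an unadjusted p under 0.05; 0 by edgeR and 2 by DESeq2). The responses of CsA and WT differed for 2 genes at 24 h, both with a smaller response in CsA (9.42% called, 4.89% lower). For the 2 h response limma called 0 (0.146%), and edgeR and DESeq2 called 0, with 1 at an unadjusted p under 0.05. Of all 14424 genes, 757 had such an unadjusted p between untreated genotypes, 1150 for their 2 h responses and 873 for their 6 h responses. Of all 13738 genes, 2546 had one for CsA against WT at 2 h and 1898 for their 2 h responses.

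On the GRCm38 annotation (GENCODE M21) the proteinase genes are Mmp2 (ENSMUSG00000031740, chromosome 8, 92827291 to 92853420), Mmp3 (ENSMUSG00000043613, chromosome 9, 7445822 to 7455975) and Mmp14 (ENSMUSG00000000957, chromosome 14, 54431612 to 54445364), all on the plus strand. Each value counts reads over the whole gene, exons of all its transcripts together.

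Among the proteinases, Mmp3 (stromelysin-1, which cuts proteoglycans and other matrix proteins and can activate other pro-MMPs) had the largest response. Its signal in Cn-Ctl was 30.7 and 10.5 untreated, 58.7, 91.2 and 146 at 2 h, 92.1, 104 and 54.1 at 6 h, and 167 and 160 at 24 h. Every Ang-II library of Cn-Ctl lay above both untreated ones. The rise was 2.33 on the log2 scale at 2 h (SE 0.51, limma adjusted p = 0.00574), 2.13 at 6 h (SE 0.51, limma adjusted p = 0.0181) and 3.15 at 24 h (SE 0.56, limma adjusted p = 0.0017). These calls rested on 2 untreated libraries. Without untreated replicate 3, the lower of the pair, the log2 differences were 1.57, 1.37 and 2.40, with limma adjusted p of 0.242, 0.401 and 0.0566, and without untreated replicate 2 they were 3.08, 2.88 and 3.90, all called. Without 6 h replicate 2 the 6 h value was 1.94 (limma adjusted p = 0.065). In those fits a lone untreated library is assumed to vary like the other groups.

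In SM-Cn-/- the Mmp3 signal was 63.5, 34.1 and 20.999 untreated, 107, 93.5 and 68.6 at 2 h, 102, 107 and 31.4 at 6 h, and 174, 152 and 95.2 at 24 h. The groups at 2 and 24 h lay above the untreated group without overlap, and the 6 h group did not. The log2 difference was 1.29 at 2 h (SE 0.46, limma adjusted p = 0.208) and 1.91 at 24 h (SE 0.46, limma adjusted p = 0.049), and the 24 h call was lost when any of 5 of the 6 libraries was left out (highest limma adjusted p = 0.244, without untreated replicate 3) and under edgeR (adjusted p = 0.0549). At 24 h the genotypes overlapped in Mmp3 level, with a difference of -0.27 (SE 0.51, limma adjusted p = 0.847). The difference between responses at 24 h was -1.23 (SE 0.72, limma adjusted p = 0.553), so a smaller Mmp3 response in SM-Cn-/- was not shown.

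In WT the Mmp3 signal was 33.0, 19.5 and 17.8 untreated, 30.4, 39.3 and 26.6 at 2 h, and 147, 190 and 187 at 24 h. Thus WT libraries at 2 h overlapped the untreated ones and those at 24 h lay well above. The rise at 24 h was 2.92 on the log2 scale, or 7.56-fold (SE 0.27, limma adjusted p = 1.67e-06), and all alternatives and all fits without 1 library kept that call. In CsA the signal was 44.3, 56.2 and 38.1 untreated, 23.2, 26.3 and 35.5 at 2 h, and 79.5, 57.6 and 125 at 24 h. The CsA libraries at 2 h lay below the untreated ones and those at 24 h above, yet neither difference passed the limma threshold (-0.70, limma adjusted p = 0.0761, and 0.86, limma adjusted p = 0.0577). The rise from 2 to 24 h passed it (1.56, SE 0.27, limma adjusted p = 0.00132). For CsA at 24 h against untreated, edgeR and DESeq2 each called 4 of the 8 genes, where limma called 3.

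CsA thus went with a higher Mmp3 level before Ang-II and a lower one after 24 h of it. At 2 h the CsA libraries (23.2 to 35.5) overlapped the WT libraries (26.6 to 39.3), and Mmp3 was not called by limma. Untreated, CsA exceeded WT by 1.00 on the log2 scale (SE 0.27, limma adjusted p = 0.0138), and at 24 h it was lower by 1.06 (log2 difference -1.06, SE 0.27, limma adjusted p = 0.032). The difference in the 24 h response was -2.06 (SE 0.38, limma adjusted p = 0.00678), and it stayed between -2.35 and -1.80 when each library was left out, with a highest limma adjusted p of 0.0222. The 2 level differences were less firm. The untreated one lost its call without WT replicate 2 or 3 or CsA replicate 2 (highest limma adjusted p = 0.0696), and the 24 h one without any of 5 of the 6 libraries (highest limma adjusted p = 0.153, without WT replicate 2) or when only the groups compared were fitted (limma adjusted p = 0.117). The 8 macrophage markers, all detected, summed to 296 to 360 in untreated CsA against 109 to 158 in untreated WT, and to 252 to 407 against 288 to 427 at 24 h, and their part in the Mmp3 difference was not tested.

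Mmp14, the membrane-bound proteinase that activates pro-MMP-2, rose modestly with Ang-II. Its signal was 25.1 and 28.9 in untreated Cn-Ctl, 41.0, 41.7 and 82.8 at 2 h, 49.1, 54.9 and 46.2 at 6 h, and 72.2 and 46.0 at 24 h, with no overlap between untreated and treated libraries. The log2 difference was 0.94 at 2 h (SE 0.27, limma adjusted p = 0.0376), 0.88 at 6 h (limma adjusted p = 0.0691) and 1.08 at 24 h (SE 0.29, limma adjusted p = 0.031). The 2 h call was lost without 2 h replicate 3 (0.61, limma adjusted p = 0.174) or either untreated library (highest limma adjusted p = 0.258, without replicate 2), and the 24 h call without 24 h replicate 2 (0.76, limma adjusted p = 0.194) or either untreated library (highest limma adjusted p = 0.205, without replicate 2). In the fit of only the groups compared, limma adjusted p was 0.12 at 2 h and 0.119 at 24 h. In SM-Cn-/- the signal was 25.2, 24.6 and 31.6 untreated and 54.2, 44.2 and 48.2 at 24 h, a log2 difference of 0.84 that missed the threshold (SE 0.24, limma adjusted p = 0.11).

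In the CsA experiment the same gene had a narrower error, and the reason was not tested. Mmp14 signal was 49.7, 49.5 and 57.9 in untreated WT and 95.0, 104 and 83.3 at 24 h, a rise of 0.84 on the log2 scale, or 1.79-fold (SE 0.09, limma adjusted p = 8.93e-06). In CsA it was 42.1, 44.2 and 46.1 untreated and 72.3, 69.3 and 63.8 at 24 h, a rise of 0.63 (SE 0.09, limma adjusted p = 0.0015). Neither arm differed from untreated at 2 h beyond its spread, with log2 differences of 0.11 and 0.04. At 24 h all CsA libraries lay below all WT libraries, by -0.45 on the log2 scale (SE 0.09, limma adjusted p = 0.0143), a call lost without WT replicate 2 (-0.38, limma adjusted p = 0.0966) and in the fit of only these groups (limma adjusted p = 0.114). The difference between responses was -0.21 (SE 0.13, limma adjusted p = 0.322).

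Mmp2 (gelatinase A, which cuts denatured collagen and basement membrane collagen) was called by limma in no comparison of either experiment, and by DESeq2 in Cn-Ctl at 2 h (adjusted p = 0.0361). Its signal was 64.0 and 62.9 in untreated Cn-Ctl, and the 8 treated Cn-Ctl libraries lay between 64.1 and 162, above both untreated ones. The largest log2 difference, at 2 h, was 0.84 (SE 0.30, limma adjusted p = 0.114). Untreated SM-Cn-/- libraries, at 113, 110 and 78.0, exceeded untreated Cn-Ctl by 0.64 (SE 0.30, limma adjusted p = 0.95). In the CsA experiment Mmp2 signal ran from 59.6 to 141 over all 18 libraries, and the difference from untreated at 24 h was 0.44 in WT (SE 0.21, limma adjusted p = 0.121) and 0.14 in CsA (SE 0.21, limma adjusted p = 0.706).

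Because the 3 proteinases differed in response, their mixture shifted. Per kilobase, Mmp3 made up 19.9 and 42.3% of the summed level of the 3 proteinases in the untreated Cn-Ctl libraries and 66.7 and 75.0% at 24 h. In WT its share was 24.1 to 29.8% untreated and 63.6 to 70.2% at 24 h, and in CsA 40.6 to 49.7% and 45.7 to 66.9%. In SM-Cn-/- it was 29.1 to 48.2% untreated and 58.6 to 65.2% at 24 h. In 3 of the 4 arms the 24 h and untreated libraries did not overlap, and in CsA they did.

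**Figure D2:**
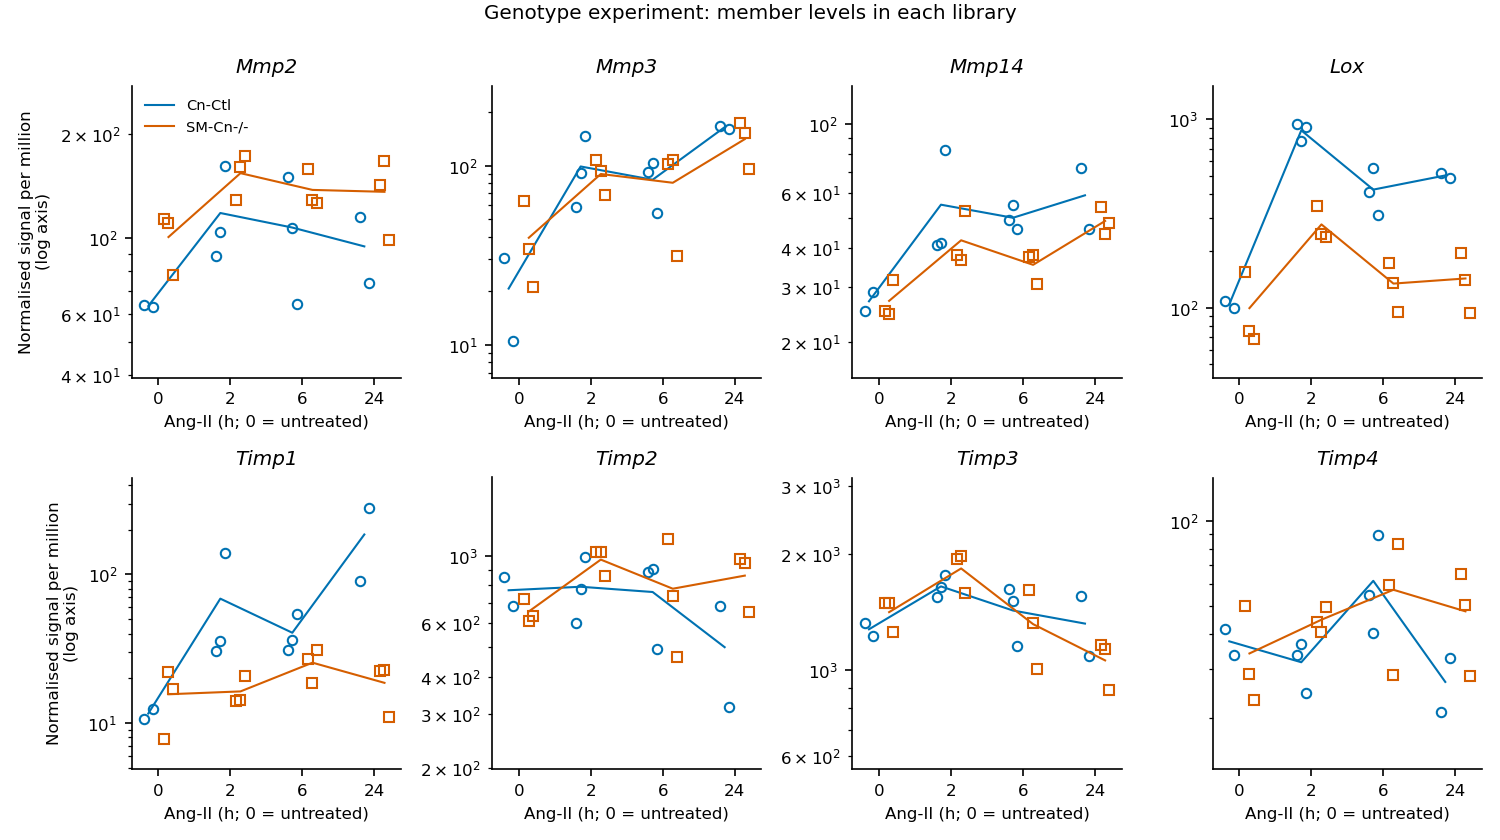
Signal of each gene in every library of the genotype experiment (log axes) against hours of Ang-II, with circles for Cn-Ctl, squares for SM-Cn-/- and lines through group means. Lox squares lay below the Lox circles at 2, 6 and 24 h, and Timp1 circles at 24 h (90.7 and 281) lay above all 3 squares (10.9 to 22.8).

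The inhibitor genes are Timp1 (ENSMUSG00000001131, chromosome X, 20870166 to 20874735, plus strand), Timp2 (ENSMUSG00000017466, chromosome 11, 118301069 to 118355740, minus strand), Timp3 (ENSMUSG00000020044, chromosome 10, 86300372 to 86349506, plus strand) and Timp4 (ENSMUSG00000030317, chromosome 6, 115241892 to 115252205, minus strand), on the same build.

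Among the inhibitors, Timp1 was the responsive one. Its product is a secreted inhibitor of most soluble MMPs. Timp1 signal in Cn-Ctl was 10.7 and 12.5 untreated, 30.6, 35.7 and 140 at 2 h, 31.0, 36.1 and 54.4 at 6 h, and 90.7 and 281 at 24 h. All treated Cn-Ctl libraries exceeded the untreated ones, with wide spread among them. The log2 difference was 2.16 at 2 h (SE 0.54, limma adjusted p = 0.0161), 1.72 at 6 h (SE 0.54, limma adjusted p = 0.0778) and 3.73 at 24 h, or 13.3-fold (SE 0.59, limma adjusted p = 0.000753). The 2 h call was lost without 2 h replicate 3 (1.48, limma adjusted p = 0.0838), without either untreated library (limma adjusted p = 0.149 without replicate 2 and 0.104 without replicate 3) and in the fit of only these groups (limma adjusted p = 0.0533), whereas the 24 h call was not lost in any alternative or without any 1 library. The size of the 24 h rise depended on which of the 2 libraries at that time was kept, at 2.92 without 24 h replicate 3 and 4.54 without 24 h replicate 2.

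SM-Cn-/- libraries showed no such range. Timp1 signal there was 7.84, 22.1 and 16.96 untreated, 13.98, 14.4 and 20.6 at 2 h, 26.8, 18.6 and 31.1 at 6 h, and 22.2, 22.8 and 10.9 at 24 h, so treated and untreated libraries overlapped at all 3 times. The log2 difference at 24 h was 0.29 (SE 0.48, limma adjusted p = 0.882). At 24 h SM-Cn-/- was lower than Cn-Ctl by 3.14 (log2 difference -3.14, 0.114 times the Cn-Ctl level, SE 0.54, limma adjusted p = 0.00129), and without Cn-Ctl 24 h replicate 3, the library at 281, the difference was -2.32 (limma adjusted p = 0.0847), and without replicate 2 it was -3.95 and still called. The difference between the 24 h responses was -3.44 (SE 0.76, limma adjusted p = 0.0424). It ranged from -4.25 (without Cn-Ctl 24 h replicate 2) to -2.62 (without replicate 3) and lost its call in 8 of the 10 fits without 1 library (limma adjusted p up to 0.343, again without Cn-Ctl 24 h replicate 3), and also when only these groups were fitted (limma adjusted p = 0.0598). At 2 h the level difference was -1.71 (SE 0.48, limma adjusted p = 0.0509, and 0.0066 to 0.0988 over the alternatives).

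In WT, Timp1 was not called at 2 h and had the largest rise of the 8 genes at 24 h. The signal was 11.1, 7.62 and 6.99 untreated, 11.2, 10.7 and 13.1 at 2 h, and 134, 324 and 147 at 24 h. The log2 difference was 0.44 at 2 h (SE 0.29, limma adjusted p = 0.323) and 4.39 at 24 h, a 20.9-fold rise (SE 0.29, limma adjusted p = 1.96e-07). In CsA the signal was 9.79, 15.2 and 11.3 untreated, 8.40, 15.5 and 12.7 at 2 h, and 34.1, 38.9 and 50.04 at 24 h, and the 24 h rise was 1.73, or 3.31-fold (SE 0.29, limma adjusted p = 0.00308). All 3 CsA libraries at 24 h lay above their untreated group and below all 3 WT libraries at 24 h. The level difference at 24 h was -2.18 (SE 0.29, limma adjusted p = 0.00258), kept without any 1 library but not in the fit of only these groups (limma adjusted p = 0.0683). The difference between responses was -2.66 (SE 0.42, limma adjusted p = 0.00336), ranged from -2.89 to -2.26 without each library, and remained called in every alternative.

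**Figure D3:**
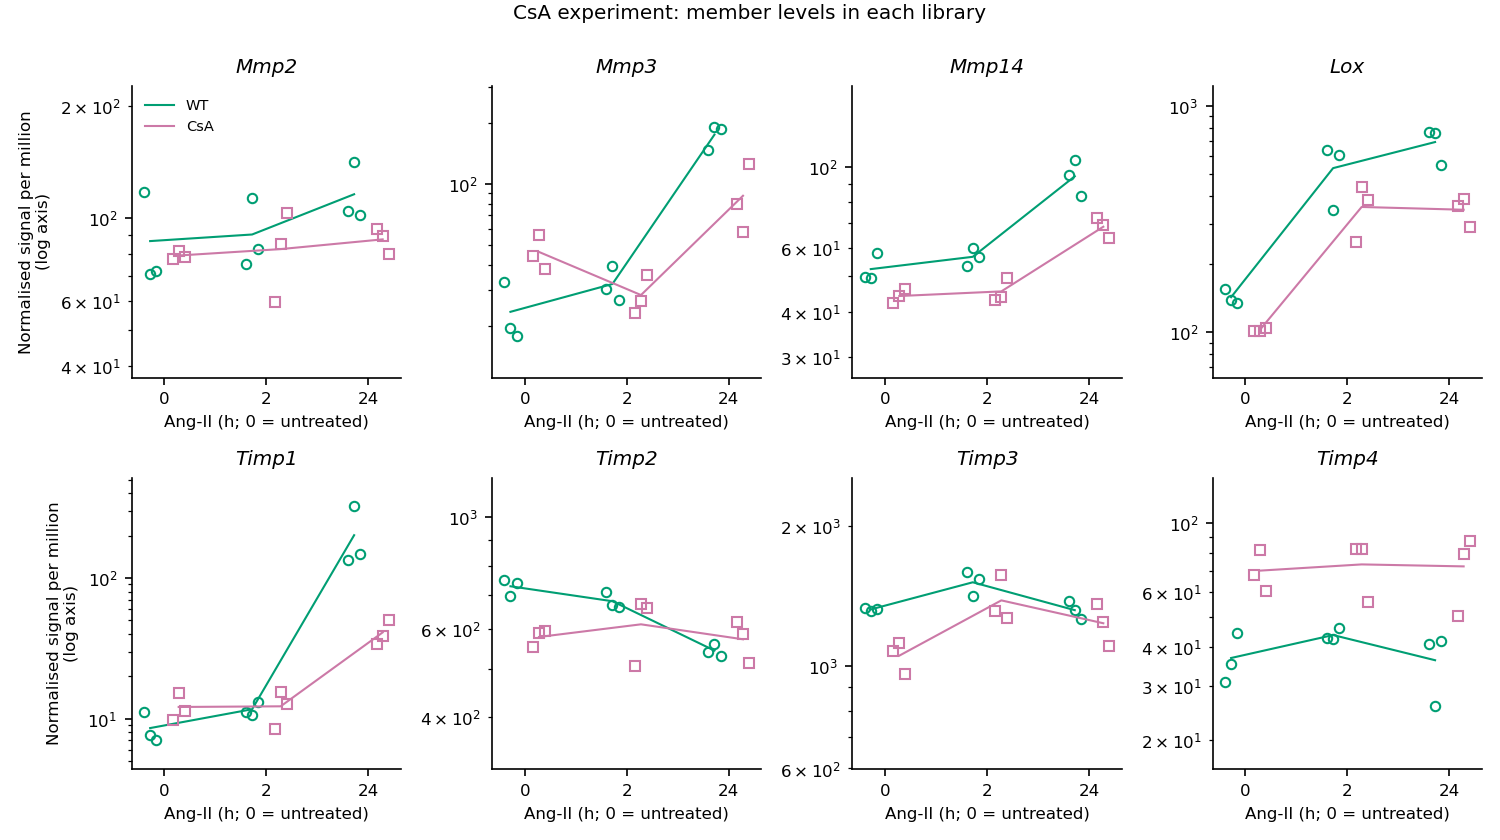
Signal of each gene in every library of the CsA experiment (log axes) against hours of Ang-II, with circles for WT, squares for CsA and lines through group means. At 24 h the Timp1 circles (134 to 324) lay above the squares (34.1 to 50.04), and Timp4 squares lay above Timp4 circles at each time.

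Macrophage markers moved in the same direction as Timp1 and Mmp3 in some arms. Their sum was 94.5 to 126 in untreated Cn-Ctl and 247 to 333 at 24 h, and 109 to 158 in untreated WT and 288 to 427 at 24 h. In SM-Cn-/- it was 168 to 291 untreated and 188 to 316 at 24 h, and in CsA 296 to 360 and 252 to 407. Library by library at 24 h, the macrophage sums were 280, 252 and 407 in CsA and 288, 416 and 427 in WT. Neutrophil markers summed to at most 16.9 in the genotype experiment and at most 29.1 in the CsA experiment outside 1 library (CsA 24 h replicate 3, 91.9), and lymphocyte markers to at most 16.9. Adventitial fibroblast markers, all 8 detected, summed to 906 to 3158 in Cn-Ctl and 1223 to 2811 in SM-Cn-/-, and at 24 h to 1550 to 1871 in WT and 1187 to 1527 in CsA. The part of any of these cells in the Timp1 and Mmp3 differences was not tested.

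Timp2, an inhibitor that also takes part in pro-MMP-2 activation, had a high level. Its highest group mean was 1.34 times the lowest among WT and CsA groups, and 1.95 times among Cn-Ctl and SM-Cn-/- groups. In SM-Cn-/- the signal was 723, 609 and 636 untreated, 1030, 1028 and 862 at 2 h, and 980, 949 and 656 at 24 h. The 2 h libraries lay above the untreated ones, but the log2 difference of 0.57 was not called (SE 0.30, limma adjusted p = 0.443). In Cn-Ctl the signal ran from 492 to 995 at 2 and 6 h. In WT its signal was 750, 696 and 741 untreated, 709, 669 and 665 at 2 h, and 540, 559 and 530.5 at 24 h, and the 24 h libraries lay below all others. The log2 difference at 24 h was -0.42 (SE 0.11, limma adjusted p = 0.00554). In Cn-Ctl the 24 h libraries, at 684 and 317, also lay below the untreated ones, at 855 and 686, but the difference of -0.72 was not called (SE 0.37, limma adjusted p = 0.291). In CsA the signal was 551, 589 and 594 untreated and 618, 586 and 512 at 24 h, with a log2 difference of -0.02 (SE 0.11, limma adjusted p = 0.931). Untreated CsA lay below untreated WT by -0.33 (SE 0.11, limma adjusted p = 0.0304), a call lost without any of the 6 libraries (highest limma adjusted p = 0.0956, without CsA replicate 1) and under quantile normalization (-0.22, limma adjusted p = 0.0873). The fall of Timp2 in WT from 2 to 24 h, -0.33 (limma adjusted p = 0.0245), was -0.04 under quantile normalization (limma adjusted p = 0.767) and lost its call without WT 2 h replicate 1 or WT 24 h replicate 1 or 3 (highest limma adjusted p = 0.083).

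Timp3, which binds to the extracellular matrix and also inhibits ADAM proteinases, had the narrowest ratio of group means in the genotype experiment. Its signal ran from 888 to 1967 in the genotype experiment and from 957 to 1590 in the CsA experiment. In SM-Cn-/- it was 1944, 1967 and 1585 at 2 h and 1160, 1132 and 888 at 24 h, a fall of 0.79 on the log2 scale from 2 to 24 h (SE 0.20, limma adjusted p = 0.0304) that lost its call without any of 5 of the 6 libraries (highest limma adjusted p = 0.167, without 24 h replicate 3) and under quantile normalization (-0.56, limma adjusted p = 0.0883). The other calls, a rise in CsA at 2 h (0.39, SE 0.11, limma adjusted p = 0.0245) and a lower level in untreated CsA than in untreated WT (-0.33, SE 0.11, limma adjusted p = 0.0433), turned sign under quantile normalization, to -0.09 and 0.02. The first was also lost without CsA untreated replicate 3 or CsA 2 h replicate 2 (highest limma adjusted p = 0.121) and the second without any of the 6 libraries (highest limma adjusted p = 0.167). No direction can be given for these 2 comparisons.

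Timp4, the inhibitor with the lowest level per kilobase, did not respond to Ang-II by the test in any arm but differed between CsA and WT. Its signal was 30.8, 35.3 and 44.3 in untreated WT, 42.6, 42.4 and 45.8 at 2 h, and 41.0, 25.8 and 41.8 at 24 h. In CsA it was 68.1, 82.2 and 60.7 untreated, 82.6, 82.4 and 55.9 at 2 h, and 50.2, 79.8 and 87.7 at 24 h. At each time all 3 CsA libraries lay above all 3 WT libraries. The log2 difference was 0.93 untreated (SE 0.22, limma adjusted p = 0.00738), 0.73 at 2 h (SE 0.22, limma adjusted p = 0.106) and 0.99 at 24 h (SE 0.22, limma adjusted p = 0.0205). The untreated call held in every alternative and without each library, while the 24 h call was lost without WT replicate 2 (0.76, limma adjusted p = 0.135) or CsA replicate 2 or 3, and in the fit of only these groups (limma adjusted p = 0.122).

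Markers of fat moved with Timp4 across these groups. The 6 adipose markers summed to 1096 to 1927 in untreated CsA against 229 to 457 in untreated WT, to 599.9 to 1872 against 344 to 724 at 2 h, and to 664 to 1962 against 426 to 524 at 24 h, and all 6 were detected in every library. Endothelial markers were also higher in CsA. The part of these tissues in the Timp4 difference was not tested. In the genotype experiment Timp4 signal ran from 21.2 to 89.5 without a call, and the adipose sum from 177 to 1597.

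The make-up of the inhibitor transcripts followed Timp1. Per kilobase, Timp1 was 3.00 and 4.06% of the summed TIMP level in the untreated Cn-Ctl libraries, 8.98, 8.98 and 24.9% at 2 h, and 21.6 and 58.9% at 24 h. In SM-Cn-/- it was 2.29 to 12% over all 12 libraries and 4.17 to 6.15% at 24 h. In WT the share was 2.14 to 3.33% untreated, 3.16 to 3.87% at 2 h and 32.3 to 54.1% at 24 h, and in CsA it was 3.72 to 5.35% untreated and 10.3 to 16.7% at 24 h. Timp2 and Timp3 made up most of the remainder in every group.

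**Figure D4:**
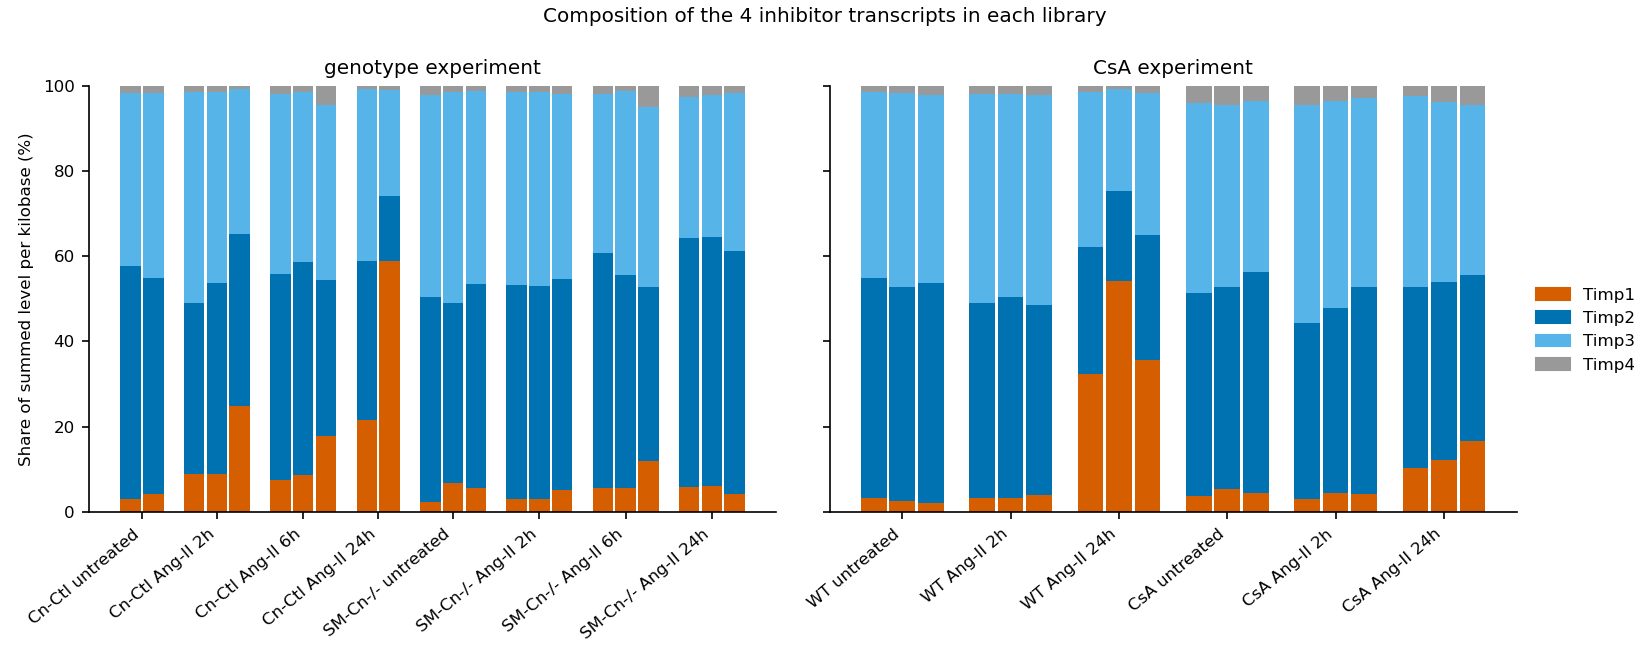
Share of each inhibitor in the summed level per kilobase of Timp1 to Timp4, one bar per library, by group and hours of Ang-II. The Timp1 part filled 21.6 to 58.9% of the bars of Cn-Ctl and 32.3 to 54.1% of those of WT at 24 h, against 4.17 to 6.15% in SM-Cn-/- and 10.3 to 16.7% in CsA.

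The summed inhibitor level divided by the summed level of the 3 proteinases, both per kilobase, was lower at 24 h than untreated in the mean of each arm. The ratio was 9.98 and 11.8 in untreated Cn-Ctl and 3.40 and 4.52 at 24 h, 5.28 to 8.48 and 2.91 to 3.27 in SM-Cn-/-, and 6.07 to 9.00 and 3.13 to 4.09 in WT. In CsA it was 5.08 to 5.62 untreated and 3.25 to 5.14 at 24 h, the 1 arm in which the ranges overlapped. These are ratios of transcripts and were not tested.

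Lox (ENSMUSG00000024529, chromosome 18, 52516067 to 52529867, minus strand) rose within 2 h in every arm. Its signal in Cn-Ctl was 109 and 99.6 untreated, 939, 771 and 911 at 2 h, 411, 551 and 309 at 6 h, and 518 and 489 at 24 h. All Ang-II libraries lay far above the untreated ones, and the 2 h libraries lay above all others. The log2 difference was 3.06 at 2 h, an 8.31-fold rise (SE 0.32, limma adjusted p = 1.91e-06), 1.98 at 6 h (SE 0.32, limma adjusted p = 0.000736) and 2.27 at 24 h (SE 0.36, limma adjusted p = 0.000727). The difference between 24 and 2 h, whose libraries did not overlap, was -0.79 (SE 0.32, limma adjusted p = 0.142) and was not called.

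In SM-Cn-/- the Lox signal was 155, 75.1 and 68.2 untreated, 347, 245 and 238 at 2 h, 173, 135 and 94.9 at 6 h, and 196, 140 and 93.6 at 24 h. The 2 h libraries lay above the untreated ones, while those at 6 and 24 h overlapped them. The 2 h rise was 1.55, or 2.93-fold (SE 0.29, limma adjusted p = 0.00734), and lost its call without 2 h replicate 1 (1.38, limma adjusted p = 0.0681) or untreated replicate 3 (1.33, limma adjusted p = 0.0861). The differences at 6 and 24 h were 0.49 and 0.56 (limma adjusted p = 0.416 and 0.486).

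Before Ang-II the genotypes overlapped in Lox level, with a log2 difference of -0.17 (SE 0.32, limma adjusted p = 0.988). At each time after it, every SM-Cn-/- library lay below every Cn-Ctl library. The differences were -1.67 at 2 h (SE 0.29, limma adjusted p = 0.00117), -1.66 at 6 h (SE 0.29, limma adjusted p = 0.00255) and -1.88 at 24 h (SE 0.32, limma adjusted p = 0.00129), and these 3 calls held in every alternative and without each library. The test of the response itself, which also carries the error of the untreated groups, gave -1.50 at 2 h (SE 0.44, limma adjusted p = 0.192), -1.49 at 6 h (SE 0.44, limma adjusted p = 0.401) and -1.71 at 24 h (SE 0.46, limma adjusted p = 0.0958). Over the alternatives the adjusted p of these 3 ran from 0.0144 to 0.449, from 0.0498 to 0.847 and from 0.00687 to 0.139, and DESeq2 called a difference in the Lox response at each time.

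In the CsA experiment Lox rose in both arms. WT signal was 156, 138 and 134 untreated, 639, 348 and 604 at 2 h, and 763, 761 and 549 at 24 h, and CsA signal was 101, 101 and 105 untreated, 249.9, 438 and 384 at 2 h, and 362, 387 and 293 at 24 h. Every treated library lay above the untreated ones of its arm. The log2 rise at 2 h was 1.84 in WT (3.58-fold, SE 0.22, limma adjusted p = 2.5e-05) and 1.76 in CsA (3.39-fold, SE 0.22, limma adjusted p = 9.33e-05), and at 24 h 2.26 in WT (4.78-fold, SE 0.22, limma adjusted p = 2.71e-06) and 1.75 in CsA (3.36-fold, SE 0.22, limma adjusted p = 0.000589). The responses differed by -0.08 at 2 h (SE 0.31, limma adjusted p = 0.933) and by -0.51 at 24 h (SE 0.31, limma adjusted p = 0.316). At 24 h the CsA level was below the WT level by -0.98 (SE 0.22, limma adjusted p = 0.02), without overlap, a call lost without WT replicate 1 or 2 or CsA replicate 3 (highest limma adjusted p = 0.114, without WT replicate 2) and in the fit of only these groups (limma adjusted p = 0.0782). Untreated CsA libraries also lay below untreated WT ones, by -0.48 (SE 0.22, limma adjusted p = 0.123).

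The 8 genes thus followed several time courses. In WT, Timp1, Mmp3 and Mmp14 rose between 2 and 24 h by 3.94, 2.44 and 0.73 on the log2 scale (limma adjusted p = 4.56e-07, 9e-06 and 3.47e-05), whereas Lox, already raised at 2 h, differed by 0.42 (SE 0.22, limma adjusted p = 0.154). In CsA the corresponding differences were 1.73, 1.56 and 0.59 (limma adjusted p = 0.00117, 0.00132 and 0.000823) and -0.01 for Lox. Across the 18 libraries of the CsA experiment the log2 signal of Timp1 correlated with that of Mmp3 at r = 0.94 and with that of Mmp14 at r = 0.89, and across the 22 of the genotype experiment at r = 0.45 and 0.63. Timp2 and Timp3 correlated at 0.48 and 0.58, and Mmp3 with Timp2 at -0.66 and 0.26, in the same order of experiments. These are descriptions over libraries that share groups and treatment.

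Other genes of the same processes were taken from lists chosen with earlier results of these data known. Of 20 other metalloproteinases 11 were measured. In untreated aortas 2 of them were higher and 4 lower in CsA than in WT (25.2% of all genes called), and from 2 to 24 h in WT 2 rose and 3 fell (36.2%). In WT at 24 h Mmp19 rose (1.94, limma adjusted p = 5.2e-05) and Mmp16, Mmp17 and Mmp23 fell (-0.78, -0.63 and -0.56, limma adjusted p = 0.0041, 0.0031 and 0.011), that is 4 of 11 called against 35% of all genes, and the list's median was -0.09 beside 0.00 for all genes. In CsA at 24 h Mmp15 fell (-1.53, limma adjusted p = 0.028).

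Another list held genes that activate or restrain the proteinases, such as plasminogen activators, their receptor and membrane regulators. In Cn-Ctl at 2 h, 4 of 19 measured genes rose (6.23% of all genes were called) and none fell. Among them were Plaur (the urokinase receptor; 3.00, limma adjusted p = 0.000292), Cd44 (a hyaluronan receptor that can hold proteinases at the cell surface; 2.24) and Plau (urokinase; 2.04). Several of these genes, like Lox and Mmp3, stand in the study's own lists of changed genes and are no independent support. At 24 h 5 rose and 1 fell in Cn-Ctl (5.62% of all genes), while in SM-Cn-/- 1 rose (0.79%), Lrp1, a scavenger receptor that clears proteinases (0.85, limma adjusted p = 0.038). The 2 h responses of the genotypes differed for 4 of the 19, Plau, Plaur and Cd44 among them, all smaller in SM-Cn-/- (0.513% of all genes). In WT 8 of 18 rose and 3 fell at 24 h (35% of all genes), among them Adam12 (3.26), Plaur (3.04) and Plau (2.64), and in CsA 4 rose and 1 fell (8.98%), while 7 of 18 were lower in CsA than in WT at 24 h (5.58%).

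The third list held the lysyl oxidase family and elastic fibre genes, of which 24 of 25 were measured beside Lox. In Cn-Ctl 8 rose at 2 h (6.23% of all genes) and 8 rose and 1 fell at 24 h (5.62%), with medians of 0.77 and 0.73 on the log2 scale beside 0.01 and -0.02 for all genes. The Lox relatives Loxl4 (2.24, limma adjusted p = 0.015) and Loxl2 (1.71, limma adjusted p = 7.1e-05), also lysyl oxidases, and the matrix glycoproteins Emilin2 (2.10) and Fbln2 (1.89) led at 24 h. In SM-Cn-/- at 24 h 2 rose (0.79% of all genes), Ltbp4 (1.19) and Emilin1 (1.05), both elastic fibre proteins. At 2 h in WT, 2 of the 24 rose and 1 fell (21.4% of all genes), with a median of 0.16 beside 0.02 for all genes. At 2 h in CsA, 9 rose and 2 fell (20.1%). At 24 h in WT, 10 rose and 4 fell (35%), with Loxl4 at 2.51, Loxl2 at 1.39 and Fbln5, an elastic fibre organiser, at -1.22. At 24 h in CsA, 10 rose and none fell (8.98%), led by Eln, the gene of elastin (1.37). In untreated aortas 15 of the 24 were lower and 3 higher in CsA than in WT (25.2% of all genes), with a median of -0.54 beside -0.02 for all genes. Summed smooth muscle markers were 16623 to 18702 in untreated CsA and 25857 to 35412 in untreated WT, and their part in that difference was not tested.

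Genes whose log2 signal followed a member most closely were found by Pearson's r over the 22 and the 18 libraries. Lox was nearest to Plpp1 (0.95 and 0.95), Ereg (0.94 and 0.95) and Rras2 (0.94 and 0.96). Timp1 was nearest to Tubb5 (0.90 and 0.93) and Fxyd5 (0.89 and 0.98), and Mmp3 to Icam1, Fbln2 and Map4k4, all at 0.84 to 0.86 in both. Timp2 was nearest to Reck (0.90 and 0.93), which encodes a membrane-anchored inhibitor of metalloproteinases, and to App and Ntn1. Mmp14 was nearest to Rpn1, P4hb and Surf4 (0.77 to 0.79, and 0.92 to 0.96), Timp3 to Csgalnact2, Rab5a and Msrb3 (0.86, and 0.86 to 0.90), Mmp2 to Smoc2, Igsf10 and Serpinf1 (0.73 to 0.76, and 0.75 to 0.88), and Timp4 to Kcna5, Ndrg1 and Kank3 (0.67 to 0.69, and 0.74 to 0.95).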

How the data were processed

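RNA from pooled mouse aortas was reverse transcribed from oligo-dT primers and sequenced on a Genome Analyzer IIx. Per the labels and the study's methods, the authors aligned reads with Bowtie 0.12.7 to Ensembl transcripts of GRCm38, estimated gene counts with RSEM 1.16 and deposited a normalised signal for each gene and library, (reads + 0.5) divided by the scaled library size in M reads (M, mega). All deposited signal values came back as whole reads (within 0.05), so reads could be recovered for the count tools. Columns of the authors' own comparisons were not used.

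Groups came from the labels. Of 17402 and 15399 genes listed, 2952 and 1643 of another biotype and 26 and 15 without annotation were left out, as were 3 genes of the CsA table that did not reach a signal of 1 in at least 2 libraries, which left 14424 and 13738. The test was limma 3.58.1 (R 4.3.3) on log2(signal + 0.5), with all groups of an experiment in 1 fit, a trended prior and Benjamini-Hochberg adjustment over all these genes for each of 26 comparisons, at a threshold of 0.05. Fold changes on this scale understate changes of low genes. Alternatives were a pseudocount of 1, a mean signal of at least 10, quantile normalization, only the groups compared, a replicate block, edgeR 4.0.16 and DESeq2 1.42.0 on recovered reads, and leaving out each library. The limma steps were tested on simulated data. With 3 or fewer libraries a group, single-value permutation tests were not used. Levels per kilobase used merged GENCODE exons, and promoter windows came from RefSeq. Members, gene lists and comparisons were chosen with earlier results of these data known. The named genes were the 8 members, up to 4 called genes per list with the largest change, and, for each member, the 3 genes with the highest lower r over both experiments. Some genes that this rule names are not reported here. Libraries were taken as paired by replicate number when at least 3 same-numbered pairs existed and the deviations of all correlated at r above 0.1. This held in 1 comparison, Ang-II at 2 h against untreated in CsA (r = 0.169 to 0.377). Comparisons of 2 groups in which a Cn-Ctl group had 2 libraries could not meet the rule.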

Additional observations from a re-analysis of the deposited data

Results flagged for a closer look

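A difference between responses, tested as an interaction term in limma, marked 3 results. The Timp1 response to 24 h of Ang-II was smaller in SM-Cn-/- than in Cn-Ctl, by -3.44 on the log2 scale (SE 0.76, limma adjusted p = 0.0424). Without Cn-Ctl 24 h replicate 3 it was -2.62 (limma adjusted p = 0.343), and without replicate 2 it was -4.25. It was also smaller in CsA than in WT, by -2.66 (SE 0.42, limma adjusted p = 0.00336). The Mmp3 response to 24 h of Ang-II was smaller in CsA than in WT, by -2.06 (SE 0.38, limma adjusted p = 0.00678), with both a higher untreated level and a lower level at 24 h in CsA. The Mmp3 responses of the 2 genotypes at 24 h differed by -1.23 (limma adjusted p = 0.553). No group held enough libraries for a test of single outlying samples.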

How the results depend on the processing

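Of 47 differences called for the 8 genes, 31 kept direction and call under all 7 alternatives, 27 without each library, and 26 under both. Over 329 alternative values, 17 lost the call and 2 turned sign, both under quantile normalization: Timp3 in CsA at 2 h (-0.0887) and Timp3 between CsA and WT untreated (0.0184). The cause of these changes was not tested.

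The number of the 8 genes called moved by over 1.5 times in 13 of 26 comparisons. With only the groups compared in the fit, which have fewer degrees of freedom, it was 2 instead of 4 (Cn-Ctl 2 h), 1 instead of 2 (Cn-Ctl 6 h), 2 instead of 1 (SM-Cn-/- 24 against 2 h), 0 instead of 1 (genotype difference in the 24 h response), 1 instead of 2 (CsA 2 h) and 0 instead of 5 (CsA against WT at 24 h). Quantile normalization gave 0 for SM-Cn-/- 24 against 2 h, 2 for WT 2 h, 1 for CsA 2 h and 2 for CsA against WT untreated. For SM-Cn-/- 24 against 2 h, the mean of at least 10, the replicate block and DESeq2 each gave 2, and for SM-Cn-/- against Cn-Ctl at 2 h these and edgeR each gave 2. edgeR gave 0 for SM-Cn-/- 24 h. DESeq2 gave 1, 1 and 2 for the genotype differences in the 2, 6 and 24 h responses and 2 for CsA against WT at 2 h.

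The replicate block gave 2 for the genotype difference in the 24 h response, where Lox was added, and 4 instead of 5 for CsA against WT at 24 h, where Mmp3 was lost (limma adjusted p = 0.0554). In CsA at 2 h, 2767 genes were called without and 2560 with the block, and the members called stayed at 2. No other comparison met the rule for pairing. Cn-Ctl at 6 h against untreated had only 2 pairs (r = 0.169 and 0.208), too few for the rule to apply.

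Without each library, the count ran from 1 to 4 (Cn-Ctl 2 h), 1 to 2 (6 h), 2 to 4 (24 h) and 0 to 2 (24 against 2 h). In SM-Cn-/- it ran from 0 to 1 (2 h and 24 h) and 0 to 2 (24 against 2 h). Between genotypes it ran from 1 to 2 (2 h), 1 to 3 (24 h) and 0 to 1 (24 h response). It ran from 1 to 2 for CsA at 2 h and for CsA against WT untreated, from 0 to 1 at 2 h and from 1 to 4 at 24 h.

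Groups of 2 or 3 libraries limit all results, and reads per library were fewer in the genotype experiment.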
